A study of Rattus norvegicus with 3 samples.

Results

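The insulin-like growth factor (IGF) genes described here were the ligands Igf1 and Igf2, the receptors Igf1r and Igf2r, and the binding proteins Igfbp2, Igfbp3, Igfbp4, Igfbp5, Igfbp6 and Igfbp7. They were chosen by name, as the probes whose accession belongs to these rat RefSeq symbols, and they were 10 of the 38973 genes on the arrays. They were read by 16 probes, which held 40 spots on each array. Gene expression was measured on 1-colour arrays in the cerebellar cortex of male Wistar rats, 9 weeks old, 2 days after transient occlusion of the right middle cerebral artery (MCAO) or after sham surgery. The contralateral array held left and the ipsilateral array right cerebellar cortex of the MCAO group, and the control array held left cerebellar cortex of sham-operated rats, called the control group. The tissue of 4 rats was pooled for an array, both MCAO pools came from the same rats, and with 1 array per group no test was made. There was no right-sided control, so side and surgery cannot be told apart in the ipsilateral ratios.

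A stroke in the territory of this artery can lower activity and blood flow in the cerebellar hemisphere across the midline, which is called crossed cerebellar diaschisis. IGF-1 and IGF-2 are small secreted proteins related to insulin that promote growth and survival of cells through the receptor tyrosine kinase encoded by Igf1r. Binding proteins hold the ligands in tissue fluid and can either block or prolong their action, and in the brain Igf2 and Igfbp2 are known for strong expression in the leptomeninges and the choroid plexus.

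All 10 genes had every spot well above background on all 3 arrays, and none of their spots was marked as an outlier. Signals are given on the log2 scale after shifting the arrays to a common 75th percentile, and a difference of 1 on this scale is a doubling. The error given for a ratio is that of the scanner software, which was 0.20 to 0.21 for these genes and covers neither rats nor hybridisations. Genes with a log2 ratio above 1 were counted as higher and those below -1 as lower.

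In the contralateral cerebellar cortex, 1 of the 10 genes was lower than in the control group and 0 were higher. The lower gene was Igfbp2. Among the 22085 genes with every spot well above background on all 3 arrays, 0.851% were lower and 1.41% higher in this comparison, and among all genes 6.48% were lower and 4.70% higher. In the ipsilateral cerebellar cortex, 0 of the 10 genes were beyond the threshold, against 0.797% lower and 3.10% higher among genes well above background and 3.14% lower and 13.4% higher among all genes. Without scaling, Igf2 and Igfbp2 were below -1 on each side, and the ipsilateral split of genes well above background turned from 684 higher and 176 lower to 133 higher and 1139 lower. Between the contralateral and the ipsilateral side, 0 of the 10 genes were beyond it as well. The background was 1.54% lower and 0.217% higher among genes well above background, and 13.4% lower and 1.85% higher among all genes.

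The median log2 ratio of the 10 genes to the control group was -0.02 contralaterally and 0.12 ipsilaterally, and that of the genes well above background was 0.01 and 0.03. Against the control group the family therefore had no common direction, and its genes lay between -1.50 and 0.47 contralaterally and between -0.80 and 0.53 ipsilaterally. Without scaling all 10 ipsilateral ratios were below 0, from -1.34 to -0.01 with a median of -0.42, as was the median of -0.50 of genes well above background. Both ratios use the same control array. Between the sides the median was -0.29, while that of genes well above background was -0.01. By more than the scanner error, 6 of the 10 genes were below 0 in that comparison and 0 above it, against 16.2% and 6.52% of the genes well above background. When the arrays were not scaled, Igfbp2 alone was below 0 by more than that error, at -0.31. Igf1, Igf1r, Igf2r and Igfbp6 were then above 0 by more than it, at 0.38, 0.42, 0.48 and 0.36. Without scaling of the arrays the median of the 10 genes turned to 0.10, with all genes well above background at 0.37. Relative to them it was -0.28 with and without scaling. That is so by construction, because scaling moves every ratio of a comparison by the same amount.

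**Figure D1:**
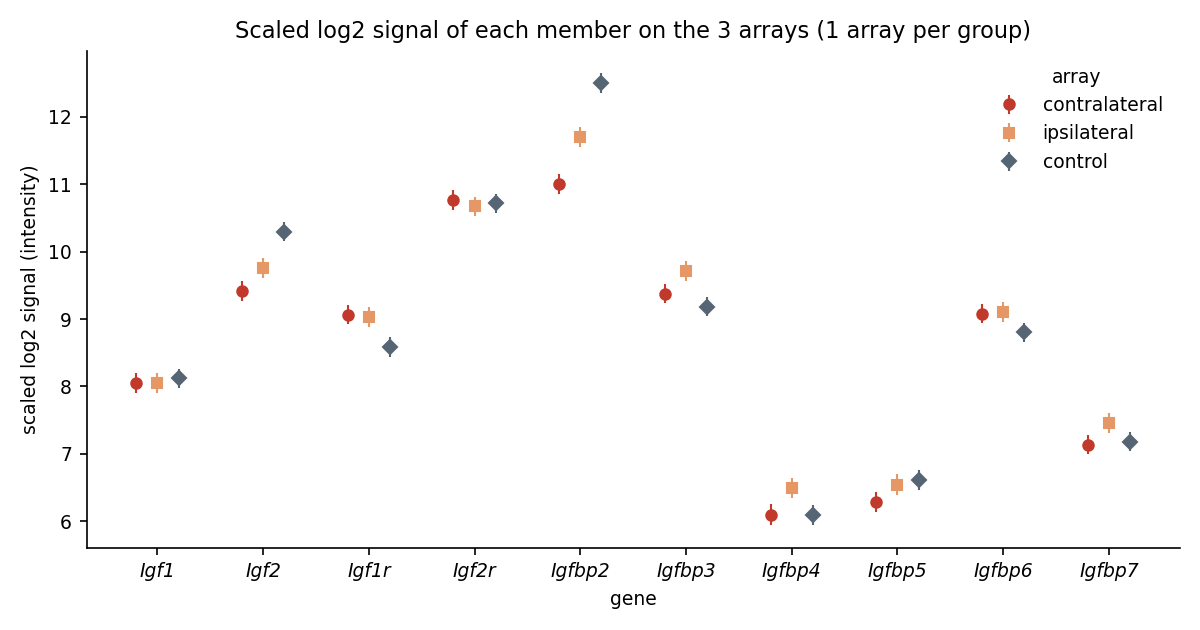
Scaled log2 signal of the 10 genes on the contralateral, ipsilateral and control array, 1 point per array, with bars for the scanner error of the signal. Igfbp2 and Igf2 stand lowest on the contralateral and highest on the control array; heights of different genes depend on their probes and are not comparable.

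Among the ligands, Igf2 was below the control array on both sides. Igf2 encodes the IGF that is produced mainly before birth and, in the adult brain, largely in its coverings. Its log2 signal was 9.41 on the contralateral, 9.76 on the ipsilateral and 10.30 on the control array. The control pool was thus highest and the contralateral pool lowest. The log2 ratio to the control group was -0.89 contralaterally, a 1.85-fold lower signal, and -0.54 ipsilaterally, a 1.46-fold lower one, each with a scanner error of 0.21. Without scaling these ratios were -1.04 and -1.08, beyond the threshold. Of the genes well above background, 1.27% had a lower ratio than Igf2 contralaterally and 3.86% ipsilaterally.

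The 2 Igf2 probes differed in brightness, but both lay below the control array on each side. Probe A_44_P1037953, with 2 spots, had log2 signals of 12.38, 12.84 and 13.30 in the contralateral, ipsilateral and control pool. Probe A_44_P1164551, with 1 spot, had 6.45, 6.67 and 7.30 in the same order. After scaling, both probes put the arrays in the same order, with contralateral ratios of -0.92 and -0.85 and ipsilateral ones of -0.46 and -0.62. Before scaling they put the sides in opposite order. The contralateral and ipsilateral signals were then 5633 and 5940 for A_44_P1037953, and 91.87 and 82.55 for A_44_P1164551. Between the sides, the ratio of Igf2 was -0.34 with an error of 0.21, and its sign turned to 0.04 without scaling. The dim probe differed between the sides by about its error, at -0.23.

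Igf1, the ligand that growth hormone induces in liver and that neurons and glia also make, had log2 signals of 8.05, 8.05 and 8.12 for the contralateral, ipsilateral and control pool. Its ratio was -0.06 on each side with an error of 0.21, so the mean over its 5 probes did not differ from the control array beyond the error. Without scaling the ipsilateral ratio was -0.60. The probes did not move together, however. The probes were assigned to 3 transcript records, and their scaled ipsilateral ratios split by record.

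Probe A_64_P052740 (NM_001082479), with 10 spots, had log2 signals of 9.48, 9.36 and 9.62 in the contralateral, ipsilateral and control pool. The SD over its spots was at most 0.07 on each array, and its ratios were -0.14 contralaterally and -0.26 ipsilaterally with an error of 0.20. All 10 spots were below the control array ipsilaterally, between -0.31 and -0.18. The 2 probes of XM_006241194 lay below the control array too. A_44_P1107298, with 2 spots, had signals of 9.24, 9.04 and 9.37, and A_44_P1044658, with 1 spot, had 7.26, 7.03 and 7.46. Their ipsilateral ratios were -0.33 and -0.43. The 2 probes of NM_001082478 went the other way after scaling. A_44_P1164271 had signals of 8.48, 8.78 and 8.47, and A_44_P1087068 had 5.82, 6.06 and 5.68, each from 1 spot. Their ipsilateral ratios were 0.31 and 0.38, and contralaterally they were 0.01 and 0.14. Before scaling, their ipsilateral signals of 356.2 and 53.88 lay below those of the control array, 414.8 and 60.05. After scaling, the ipsilateral ratios of the 5 probes thus spanned 0 with each beyond its own scanner error, while before scaling all 5 were below 0. No gene level direction is given for Igf1.

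The receptors differed from each other. Igf1r, which encodes the receptor that signals for both ligands, had a log2 signal of 9.06 on the contralateral, 9.03 on the ipsilateral and 8.59 on the control array. After scaling, the MCAO pools were level with each other and above the control pool. The ratio was 0.47 contralaterally and 0.44 ipsilaterally, each with an error of 0.21 and short of the threshold; contralaterally the signal was 1.39-fold that of the control group. Of the genes well above background, 5.71% had a higher ratio contralaterally and 11.5% ipsilaterally. Both probes, with 1 spot each, lay above the control array. A_44_P1101096 had log2 signals of 11.25, 11.20 and 10.89, and A_44_P474037 had 6.88, 6.86 and 6.29 on the contralateral, ipsilateral and control array. The contralateral ratios of these probes were 0.36 and 0.59, and the ipsilateral ones 0.31 and 0.57. Without scaling the ipsilateral ratio of Igf1r turned to -0.10, where the median of all genes well above background was -0.50. Relative to that median, it was 0.22 to 0.44 under the alternatives tried. Between the sides, the ratio of Igf1r without scaling was 0.42, beyond the scanner error, where the median of genes well above background was 0.37.

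Igf2r, whose product carries IGF-2 to lysosomes for degradation and sorts lysosomal enzymes, had log2 signals of 10.77, 10.67 and 10.72 in the contralateral, ipsilateral and control pool. It was read by 1 probe, A_44_P1003212, with 10 spots, whose SD was 0.09 to 0.10 on each array. Its ratios of 0.05 and -0.04 to the control group were within the scanner error of 0.20. Without scaling Igf2r was at -0.58 ipsilaterally and 0.48 between the sides, beyond the error.

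Among the binding proteins, Igfbp2 lay below the control array on both sides and had the lowest ratio of all 10 genes in each of the 3 comparisons. Its product binds IGF-2 with higher affinity than IGF-1 and is abundant in cerebrospinal fluid. Its log2 signal was 11.01 on the contralateral, 11.70 on the ipsilateral and 12.50 on the control array. Before scaling, the mean intensity of its probe, A_64_P039026, was 2169, 2692 and 6797 in the same order. The control pool was highest and the contralateral pool lowest, and the 2 spots of the probe differed by little beside these steps, with an SD of at most 0.03 on each array.

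Against the control group, Igfbp2 had a contralateral ratio of -1.50, a 2.82-fold lower signal, with an error of 0.20. Its ipsilateral ratio was -0.80, a 1.74-fold lower signal, and -0.69 between the sides. Of the genes well above background, 0.226% had a lower ratio contralaterally, 1.53% ipsilaterally and 3.71% between the sides. The contralateral ratio stayed below -1 under every alternative tried, between -1.65 and -1.46. The alternatives on probe choice and outlier spots could not change it, as Igfbp2 has 1 probe, well above background and without outlier spots. The ipsilateral one passed the threshold when the arrays were not scaled, at -1.34. In a pool of tissue, fewer cells that express a gene and less RNA in each of them cannot be told apart.

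The bases before the start of Igfbp2 and Igf2, the genes below the control array on both sides by more than the scanner error, are shown from RefSeq for the GRCr8 assembly, 5′ to 3′ on the strand of the gene. Igf2 has 2 starts in that table. Capitals mark the GC box, GGGCGG. It was searched on both strands. The other motifs searched in this way were the TATA box, spelled TATAAA, and the box spelled CCAAT.
Igfbp2, chr9:81864561-81864810, plus strand: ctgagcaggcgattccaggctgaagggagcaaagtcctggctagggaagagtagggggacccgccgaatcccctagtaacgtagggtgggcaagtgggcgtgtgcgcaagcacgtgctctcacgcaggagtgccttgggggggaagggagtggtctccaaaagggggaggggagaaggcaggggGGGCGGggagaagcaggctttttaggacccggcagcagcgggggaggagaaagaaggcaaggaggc
Igf2, start 1, chr1:207253981-207254230, minus strand: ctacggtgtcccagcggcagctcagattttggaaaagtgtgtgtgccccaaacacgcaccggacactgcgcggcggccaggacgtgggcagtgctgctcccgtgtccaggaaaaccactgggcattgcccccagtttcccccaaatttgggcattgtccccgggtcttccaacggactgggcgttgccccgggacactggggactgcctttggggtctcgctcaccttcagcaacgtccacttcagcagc
Igf2, start 2, chr1:207250476-207250725, minus strand: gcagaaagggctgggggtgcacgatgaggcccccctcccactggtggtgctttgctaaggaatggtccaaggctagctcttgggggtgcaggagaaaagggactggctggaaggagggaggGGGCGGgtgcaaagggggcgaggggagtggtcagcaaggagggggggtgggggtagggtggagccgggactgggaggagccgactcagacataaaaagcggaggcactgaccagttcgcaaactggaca
The windows hold 250 bases. GGGCGG occurred once in the Igfbp2 window and once in that of the second Igf2 start, and in 30.5% of the 33469 windows of the table. TATAAA, found in 12.9% of them, and CCAAT, found in 34.0%, occurred in none of these 3 windows. Of the 11 windows of the 10 genes, 5 held GGGCGG, 1 held TATAAA and 0 held CCAAT. These matches describe the letters only. Igfbp2 lies next to Igfbp5 on chromosome 9 in the RefSeq annotation, with 0 protein-coding genes between them.

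Igfbp5, the neighbour of Igfbp2, encodes a binding protein that also attaches to extracellular matrix. Its log2 signal, from 1 spot of probe A_64_P047478, was 6.29 on the contralateral, 6.54 on the ipsilateral and 6.61 on the control array. After scaling, the order of the arrays was that of Igfbp2, but the steps were small. Before scaling the Igfbp5 signals were 82.34, 75.44 and 114.6 in the same order of arrays, so the ipsilateral one was lowest. Between the sides its ratio was -0.26 with scaling and 0.13 without. The contralateral ratio was -0.33 with an error of 0.21, and the ipsilateral one, -0.07, was within the error. The ipsilateral ratio was -0.60 without scaling and 0.15 with normexp background correction. The contralateral ratio was -0.204 with normexp and -0.207 with 50 added to the signal, each within the error.

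Igfbp3 encodes the main carrier of IGF in blood. Its log2 signal was 9.38 on the contralateral, 9.71 on the ipsilateral and 9.19 on the control array, from 2 spots of probe A_64_P046754. Here the ipsilateral pool was highest after scaling. The ratio was 0.53 ipsilaterally, 0.19 contralaterally and -0.34 between the sides, each with an error of 0.20, so that the contralateral pool did not differ from the control pool beyond it. Without scaling the ipsilateral ratio was -0.01, and relative to the median of genes well above background it was 0.37 to 0.55 under the alternatives. The ratio between the sides turned to 0.045 without scaling. Mean signals before scaling were 701.0, 679.5 and 682.2 in the contralateral, ipsilateral and control pool.

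Igfbp6, whose product prefers IGF-2, had log2 signals of 9.08, 9.10 and 8.80 for the contralateral, ipsilateral and control pool from 2 spots of probe A_44_P378799. The MCAO pools were level and slightly above the control pool, with ratios of 0.27 and 0.30 and an error of 0.20. Without scaling the contralateral ratio was 0.12, the ipsilateral one -0.24 and that between the sides 0.36. With spike-in scaling the contralateral ratio was 0.20, about the error, and the ipsilateral one 0.17, within it.

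Igfbp4 and Igfbp7 lay above the control array beyond the scanner error only on the ipsilateral side. Igfbp4, which encodes a binding protein that blocks IGF action until it is cleaved, had log2 signals of 6.10, 6.49 and 6.09 in the contralateral, ipsilateral and control pool from 2 spots of probe A_43_P16767. Its ipsilateral ratio was 0.40 and its contralateral ratio 0.01, each with an error of 0.21, but the SD between its spots on the contralateral array was 0.38. Igfbp7, whose product binds IGF only weakly and is found in vessel walls, had 7.14, 7.45 and 7.18 from 1 spot of probe A_64_P048187. Its ratio was 0.27 ipsilaterally and -0.04 contralaterally with an error of 0.21. The ipsilateral ratio of Igfbp7 was 0.15 with spike-in scaling, within the error, and 0.21 with 50 added to the signal, about the error.

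At the lowest signals the ipsilateral array lay above the others after scaling. The median ratio of its 308 negative control spots, designed to match nothing in the rat, was 0.52 against the control array. Among genes well above background within 0.5 of the log2 signal of Igfbp4 and of Igfbp7, the ipsilateral median was 0.01 and -0.02. Without scaling, the ipsilateral ratios of Igfbp4 and Igfbp7 were -0.13 and -0.26, both above the median of -0.50 of all genes well above background.

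**Figure D2:**
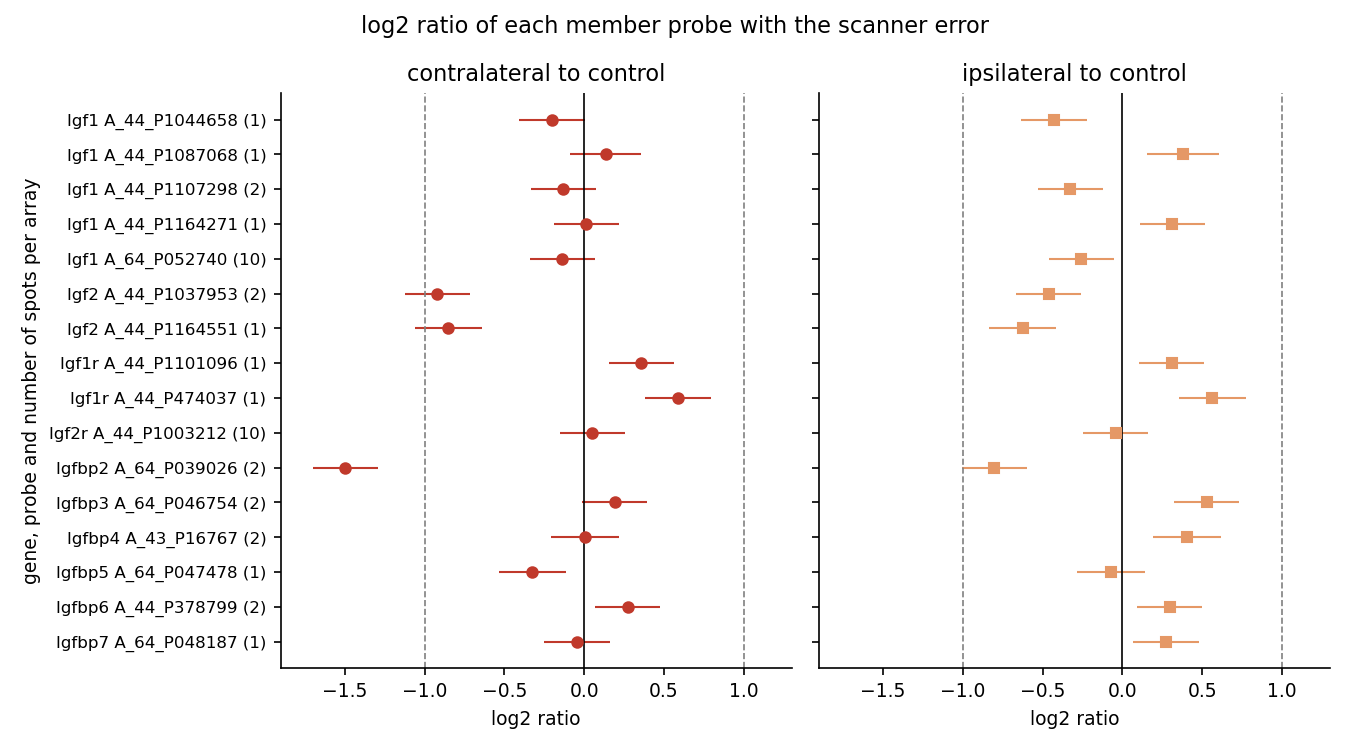
log2 ratio to the control array of each of the 16 probes on the contralateral and the ipsilateral side, with bars for the scanner error, dashed lines at the threshold and the number of spots per array in parentheses. The Igfbp2 probe alone is below -1, at -1.50 contralaterally, and the ipsilateral ratios of the Igf1 probes fall on both sides of 0.

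The genes closest to Igf2, Igfbp2 and Igfbp3 in pattern were sought among 11250 named genes well above background, as the smallest distance between the 3 log2 signals after subtracting the mean of each gene. Only 3 arrays enter this distance, so a close pattern is easily found. Those closest to Igf2 were Cdkn1c, RT1-A1, Osbpl11, Ntf3 and Bst2, at distances of 0.02 to 0.04. Cdkn1c, an inhibitor of the cell cycle, had log2 signals of 10.05, 10.38 and 10.90 in the contralateral, ipsilateral and control pool. Those closest to Igfbp2 were Trh, Ccl12, Ccl5, Sh2d2a and Necab3, at distances of 0.08 to 0.17. Trh, the precursor of a hypothalamic releasing hormone, had 4.43, 5.18 and 5.87. Those closest to Igfbp3 were Sfnl1, Itgam, Pdzk1ip1, Galnt1 and Pibf1, at distances of 0.01 to 0.02. Itgam, a subunit of a leukocyte integrin that is also on the microglia list, had 6.63, 6.96 and 6.42.

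Genes that act with the family were listed by name in 8 groups with 54 genes, of which 48 were on the arrays by accession and 39 had every spot well above background on all 3 arrays. Of these 39 genes, 0 were beyond the threshold contralaterally and 0 ipsilaterally, and 1 was lower between the sides. Their median ratio was -0.03 contralaterally and 0.01 ipsilaterally.

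Among the proteases of binding proteins and their inhibitors, Htra1, a serine protease that cleaves several of them, was the gene well above background. Its log2 signal was 11.24 on the contralateral, 11.20 on the ipsilateral and 10.47 on the control array, from 10 spots. After scaling, the MCAO pools were level and above the control pool, with ratios of 0.78 and 0.73 and an error of 0.20. Without scaling every ratio between the sides moved up alike, the median of genes well above background from -0.01 to 0.37. The MCAO pools were then not level for Htra1. Its ipsilateral ratio moved down with the median of those genes, which went from 0.03 to -0.50. Stc1 was well above background on the MCAO arrays and Stc2 on the control array, and Pappa and Pappa2 had no accession match.

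In the pathway below the receptor, 18 genes from PI3K to mTOR had a median of -0.04 contralaterally and 0.00 ipsilaterally. Foxo1, a transcription factor that Akt keeps out of the nucleus when IGF signals, had log2 signals of 8.13, 8.15 and 7.42 for the contralateral, ipsilateral and control pool. Its ratios of 0.71 and 0.73 were the highest of the group on each side. The ipsilateral one moved down without scaling, as that of Htra1 did. Tsc2, an inhibitor of mTOR and the brightest of the group, had ratios of -0.09 and -0.07. The group's highest and lowest ratios between the sides were those of Gsk3b, 0.18, and Pik3cb, -0.49.

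The 7 receptor adaptors on the arrays had medians of 0.08 and 0.07. Irs2, which links the receptors to PI3K, was highest at 0.24 and 0.23, and Gab1, the brightest, was lowest at -0.30 and -0.37. Irs1 was lowest between the sides, at -0.14. Of the growth hormone genes, 4 of 6 were well above background, with medians of 0.04 and 0.14. Stat5b, a transcription factor of that axis, was highest at 0.22 and 0.43. Cish, an inhibitor of it, was lowest at -0.04 and 0.00, and Stat5a was the brightest at 0.10 and 0.13.

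The insulin group had 3 of 5 genes well above background, with medians of -0.25 and -0.27. Insr, the insulin receptor, was lowest contralaterally at -0.46, with -0.27 ipsilaterally. Ins1 was at -0.25 and -0.39, and Ide, the insulin-degrading enzyme and the brightest, at -0.06 and -0.02. Ins2, which lies 1 protein-coding gene away from Igf2 on chromosome 1 and is named after its values were seen, was not well above background on the control array. Its log2 signal was 3.51 on the contralateral, 6.41 on the ipsilateral and 3.05 on the control array, from 1 spot. After scaling, the ipsilateral signal was at least 9.72-fold higher than that of the control array, taking the control array at its lowest signal well above background. This bound is smaller without scaling, where the ipsilateral median of genes well above background went from 0.03 to -0.50.

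Of the further binding proteins, Igfbp1 had signals of 6.07, 6.29 and 6.29 and ratios of -0.22 and 0.01. Igfbpl1, a protein similar to them, had signals of 3.66, 4.88 and 4.19 in the contralateral, ipsilateral and control pool, each from 1 spot. Its ratio between the sides was -1.22 with an error of 0.37, and its ratios to the control group were -0.53 and 0.69. It was no longer below -1 between the sides without scaling, with quantile normalization, with normexp or with 50 added to the signal. Igfals, the acid-labile subunit that completes the blood complex, was not well above background on any array. Of the Igf2 locus and mRNA-binding genes, Igf2bp2 and Plagl1 were well above background. Igf2bp2, the brighter, had ratios of 0.02 and -0.12, and Plagl1 had 0.08 and -0.25. H19, the noncoding partner of Igf2 in imprinting, was not well above background on the ipsilateral array. Lrp1, a receptor for IGFBP-3, and M6pr, which sorts lysosomal enzymes, had ratios between -0.08 and 0.08 on both sides.

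Markers of cell types were read on the same arrays. The labelled tissue was present in all of them, with all 8 Purkinje cell and all 8 granule cell markers well above background. The Purkinje list had medians of 0.14 and 0.12 to the control group and summed signals of 229131, 228410 and 208114 in the contralateral, ipsilateral and control pool, with Itpr1 brightest. The granule cell list had medians of 0.02 and -0.01, with summed signals of 89931, 88748 and 90340 in the same order and Cbln1 brightest.

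Most leptomeningeal and fibroblast markers lay below the control array, as Igf2 and Igfbp2 did. All 12 were well above background, 11 of them lay below the control array contralaterally and 10 ipsilaterally, and all 12 had a ratio below 0 between the sides. Their median was -0.52 contralaterally, -0.22 ipsilaterally and -0.32 between the sides. Without scaling these medians were -0.669, -0.755 and 0.065, the last of them above 0. Relative to the genes well above background they were -0.53, -0.25 and -0.31. Their summed signal was 13908, 17938 and 20310 on the contralateral, ipsilateral and control array. Col1a2, a collagen chain and the brightest of them, had log2 signals of 12.03, 12.52 and 12.88, and Col1a1, the gene of the list beyond the threshold, had 9.73, 10.38 and 10.99. These are ratios of -0.85 and -1.26 contralaterally and of -0.37 and -0.61 ipsilaterally. Lum, a proteoglycan, was lowest ipsilaterally at -0.63, and Mgp, an inhibitor of calcification, was highest at 0.15 and 0.47. The part of these cells in the signals of Igf2 and Igfbp2 was not tested.

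Choroid plexus markers lay below the control array with Igf2 and Igfbp2 contralaterally but mostly above it ipsilaterally. Of the 13 on the arrays, 10 were well above background, and Kl, Prlr and Cldn2 were not on every array. All 10 were below the control array contralaterally, 3 of them below -1, with a median of -0.64, and 7 were above it ipsilaterally, with a median of 0.35. Without scaling the medians were -0.79 and -0.19, so that the ipsilateral one was then below 0 as well, and relative to the genes well above background it was 0.32. The summed signal of the 13 was 12011, 78808 and 35987 on the contralateral, ipsilateral and control array. Ttr, the thyroid hormone carrier of the plexus and the brightest, had log2 signals of 13.27, 16.20 and 15.01, while the Igf2 and Igfbp2 signals were highest on the control array. Slc4a5, a bicarbonate transporter, was lower on both sides, at -2.12 and -1.20, and Sostdc1 had ratios of -1.98 and 0.92. Otx2 was highest contralaterally at -0.03. Between the sides the median was -0.90, and Ttr, Sostdc1, Folr1 and Aqp1 were beyond the threshold, at -2.93, -2.89, -1.80 and -1.21. The part of this epithelium in the results was not tested.

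**Figure D3:**
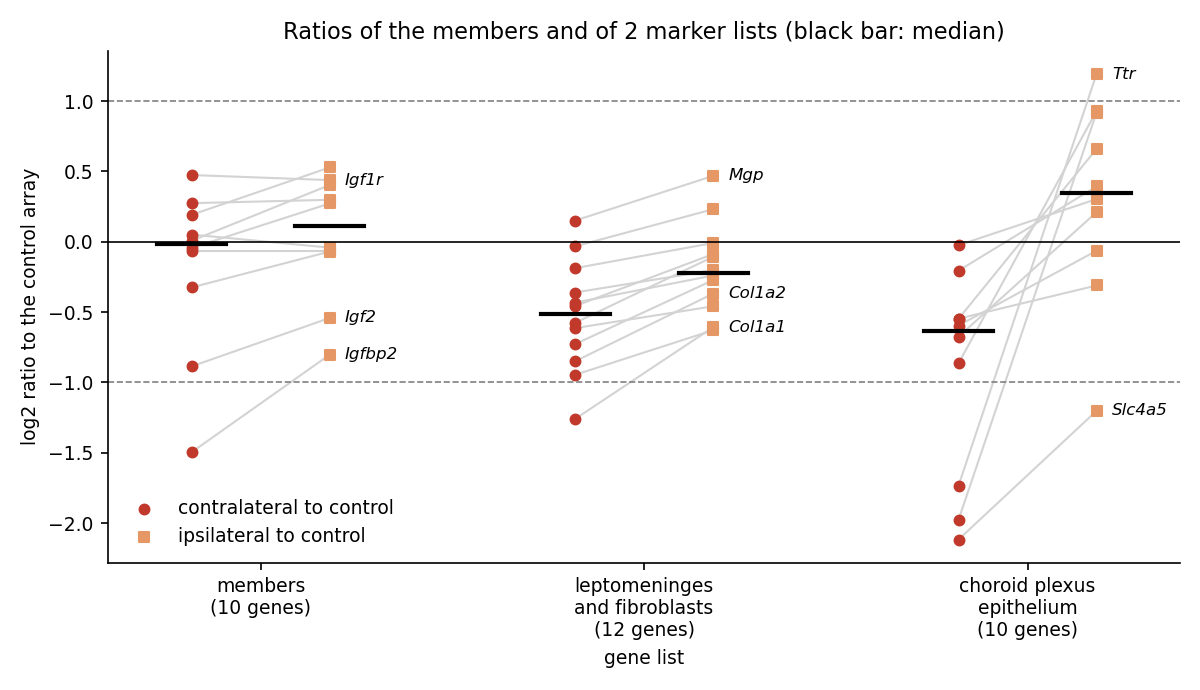
log2 ratio to the control array of the 10 members, 12 leptomeningeal and fibroblast markers and 10 choroid plexus markers, with lines joining the contralateral and ipsilateral ratio of a gene, black bars for medians and dashed lines at the threshold. Igf2 lies among the leptomeningeal markers on each side and Igfbp2 below all of them; their medians are -0.52 and -0.22, while the choroid plexus median turns from -0.64 to 0.35.

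Of the other lists, microglia had medians of 0.24 and 0.31 and summed signals of 13073, 16436 and 9518 in the contralateral, ipsilateral and control pool, with C1qb brightest. Cx3cr1, a chemokine receptor of these cells, was highest, at 0.78 and 1.27, and Aif1 lowest, at -0.29 and -0.10. Without scaling every ipsilateral ratio moved down alike, the median of genes well above background from 0.03 to -0.50. The ipsilateral medians of the Purkinje and microglia lists were then below 0, and Cx3cr1 was within the threshold. Endothelial markers had medians of -0.22 and -0.12, with Cldn5 brightest, Emcn lowest contralaterally at -0.76, Kdr lowest ipsilaterally at -0.77, and Abcb1a and Cdh5 highest at 0.35 and 0.43 on these sides. Pericyte and smooth muscle markers had -0.18 and -0.13, with Cspg4 brightest and Rgs5 lowest at -0.41 and -0.35, and Abcc9 was not well above background in every spot. All 7 pericyte and smooth muscle markers well above background lay below the control array on both sides, as Igf2 and Igfbp2 did. Of the 8 endothelial markers, 6 lay below it contralaterally and 5 ipsilaterally. Bergmann glia and astrocytes had -0.07 and -0.12, with Aqp4 brightest, Gfap lowest at -0.74 and -0.65 and Gdf10 highest at 0.39 and 0.27. Oligodendrocytes had -0.08 and -0.02, with Cnp lowest at -0.47 and -0.48 and Mobp highest at 0.28 and 0.23. Ependymal markers had 0.15 and -0.09 over 4 genes, with Rsph1 brightest and Tmem212 lowest ipsilaterally at -0.89. Of the erythroid markers, 0 of 3 were well above background on every array, and their summed signal of 33.5, 37.0 and 86.8 for contralateral, ipsilateral and control RNA was highest in the control pool. The part of these cells in the results was not tested.

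**Figure D4:**
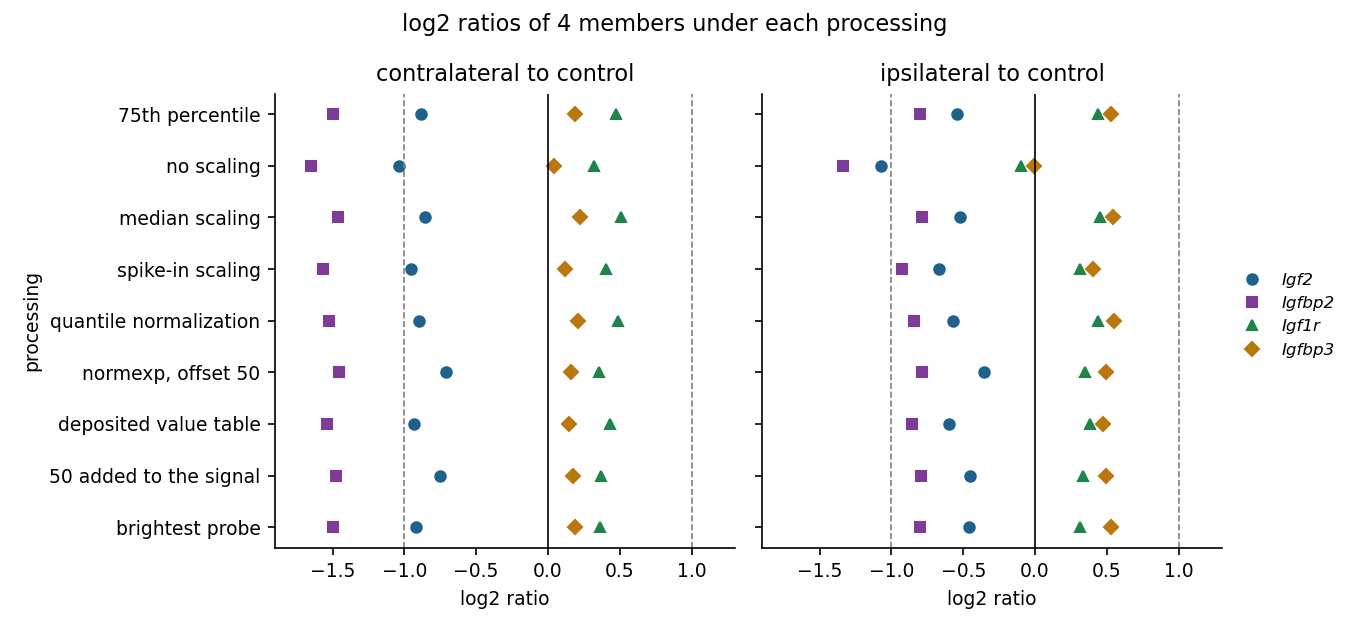
log2 ratio to the control array of Igf2, Igfbp2, Igf1r and Igfbp3 on the contralateral and the ipsilateral side, 1 row of points per processing, with dashed lines at the threshold. Igfbp2 is below -1 contralaterally in every row, and without scaling all 4 genes move down on the ipsilateral side, Igfbp3 to -0.01.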

How the data were processed

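The authors labelled RNA with Cy3, used 1-colour arrays from Agilent, and deposited spot-level intensity read by Agilent Feature Extraction 12.1.0.3, background-subtracted and not scaled between arrays. They also deposited a table of these intensities multiplied by 1 factor per array, 1.12, 1.45 and 1.04 for the contralateral, ipsilateral and control array, with medians of 139.4, 139.6 and 146.9. Whether these factors are the normalization to control samples that the methods mention is not given in the sources used here.

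log2 intensities were shifted so that the 75th percentile of all 58717 non-control spots was equal between arrays. The 759 outlier spots were left out, and spots of a probe, then probes of a gene, were averaged. A symbol was found in the GRCr8 RefSeq table for 17622 of 39957 accessions, and others were kept as they were. Members and lists were chosen with earlier results of these data known. Besides the members, the text names in each list, with 2 genes left out, the brightest gene, genes beyond the threshold and those with extreme ratios, among genes with every spot well above background on all 3 arrays, and the 5 genes nearest in pattern to members spanning over 0.5. Protein features were planned, and no protein table was used here. The methods' threshold was applied. The scanner error was averaged over spots and taken as shared by them. With 1 array per group the number of arrays limits the precision.

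The processing was varied in 11 ways set before the files were read. The arrays were left unscaled, scaled by the median, by 8 spike-in probes or by quantiles, or taken from the deposited table. Normexp (limma 3.58.1, offset 50) replaced the background correction, on median signals as the files hold no mean signal, or 50 was added to each signal. Probes were required to be well above background on all 3 arrays or at least 1, only the brightest probe of a gene was used, or outlier spots were included. A percentile without outlier spots was added after counts had been seen. For a time during the work it was the main scaling, because its counts equalled earlier ones for these data, and the choice first fixed was then restored. Counting was tested on simulated data. Python 3.11.15, numpy 2.4.6, pandas 2.3.3, matplotlib 3.10.9 and R 4.3.3 were used.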

Additional observations from a re-analysis of the deposited data

Results flagged for a closer look

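The median of the choroid plexus list was -0.64 contralaterally and 0.35 ipsilaterally to the control group, so the sides lay on opposite sides of 0. Its genes Ttr (-1.73 and 1.19), Sostdc1 (-1.98 and 0.92), Folr1 (-0.86 and 0.93), Aqp1 (-0.55 and 0.66) and Kcnj13 (-0.68 and 0.21) lay on opposite sides of 0 too, each by more than the scanner error. Among genes that act with the family, Igfbpl1 had -0.53 contralaterally and 0.69 ipsilaterally, and the median over Igfbp1 and Igfbpl1 was -0.37 and 0.35. Without scaling of the arrays, the choroid plexus medians were -0.79 and -0.19, those over Igfbp1 and Igfbpl1 -0.53 and -0.19, and the ratios of Kcnj13 -0.83 and -0.32, all below 0, while Ttr, Sostdc1 and Folr1 kept opposite signs. Aqp1 and Igfbpl1 kept theirs, but their ipsilateral ratios of 0.13 and 0.16 were then within the scanner error. With 1 array per side none of these differences was tested.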

How the results depend on the processing

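Of 360 ratios of the 10 genes under 12 alternatives, 21 differed from the reported one by more than the scanner error, 20 of them without scaling, and 25 had the other sign. Some alternatives could not move these ratios. Every spot of the 10 genes was well above background and none was an outlier, so the filters on background and the inclusion of outlier spots changed nothing. The choice of the brightest probe left the 7 genes with 1 probe, Igfbp2 among them, as they were. Igfbp2 stayed below 0 in every comparison and was below -1 contralaterally under all 12, and no ratio beyond the threshold changed sign.

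Without scaling, the median of all genes was -0.11 contralaterally, -0.40 ipsilaterally and 0.28 between the sides, and every ratio of a comparison moved by the same amount by construction. Igf2 was then -1.08 ipsilaterally and 0.038 between the sides, and Igfbp2 -1.34 and -0.31. The median of the 10 genes was -0.42 and 0.10, and that of the other pathway genes -0.53 and 0.39. Of the 10 genes, 2 were below -1 contralaterally and 2 ipsilaterally. Relative to genes well above background, Igf2 was between -0.94 and -0.76 contralaterally and between -0.57 and -0.48 ipsilaterally under the alternatives, and Igfbp2 between -1.54 and -1.48 and between -0.91 and -0.82.

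Counts beyond the threshold follow as above 1 / below -1, where they changed by over 1.5 times. Among all genes, 50 added to the signal left 89 / 93 contralaterally, 143 / 80 ipsilaterally and 43 / 59 between the sides, and normexp 72 / 51, 167 / 24 and 7 / 39. Probes well above background on all 3 arrays gave 346 / 202, 762 / 192 and 52 / 375. Probes well above background on at least 1 array gave 1043 / 1342 contralaterally, 2469 above 1 ipsilaterally and 469 / 2281 between the sides. No scaling gave 2618 / 3352 ipsilaterally and 1414 / 3459 between the sides, and quantile normalization 2862 / 2439 and 2158 / 2520. Among genes well above background, 50 added gave 58 / 37, 95 / 30 and 13 / 17, and normexp 51 / 20, 116 / 12 and 3 / 14. No scaling gave 323 below -1 contralaterally, 133 / 1139 ipsilaterally and 163 / 110 between the sides, and quantile normalization 275 below -1 ipsilaterally and 114 / 163 between the sides. Of the other pathway genes, 0 were below -1 between the sides with 50 added, normexp, no scaling or quantile normalization, and 1 was above 1 with the brightest probe. The cause was not tested.

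Of all genes beyond the threshold, 42.1% were higher contralaterally, 81.0% ipsilaterally and 12.2% between the sides. These shares were 51.0%, 54.0% and 46.1% after quantile normalization, 31.3%, 43.9% and 29.0% without scaling, and 58.5%, 87.4% and 15.2% with normexp.

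The percentile without outlier spots, added after counts had been seen, moved no ratio of the 10 genes beyond the scanner error. With 1 pool per group, differences between rats, pools and hybridisations cannot be told apart from the surgery, and the scanner error covers none of them. Of the 10 genes, 7 were read by 1 probe and 2 by 1 spot. No paired analysis was possible because each group has 1 array.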
